A study of Mus musculus with 10 samples.

Results

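The genes of the eukaryotic translation initiation factors, Eif1 to Eif6, were followed through an actinomycin D chase in 32Dcl3 cells, a mouse myeloblast line that depends on IL-3. A gene was included when a probe set carried its symbol alone and the symbol began with Eif followed by a digit of 1 to 6. The probe set with the highest mean over the 10 arrays stood for the gene. This gave 42 genes of 12394 named on the array, and all 42 had a mean intensity of at least 50, the minimum for testing. IL-3 was washed out, actinomycin D at 10 µg/ml was added to stop transcription, and the culture was then divided between high IL-3 (1 ng/ml) and low IL-3 (10 pg/ml). RNA was taken at 2 h and 4 h with high IL-3, at 2 h and 4 h with low IL-3, and at 0 h. Every group had 2 arrays, 1 from each of 2 independent experiments, and all of the cells had been exposed to actinomycin D by 2 h. The labels differ on whether the 0 h cells had already received the drug: the titles place 0 h after it, another label just before it, and the study's methods count the hours from the addition of cytokine, which followed the drug.

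Translation initiation brings a ribosome to the start codon of an mRNA. eIF2 carries the initiator tRNA and is recharged with GTP by eIF2B, which kinases block by phosphorylating eIF2. eIF3, eIF1 and eIF1A assemble with eIF2 on the small ribosomal subunit, and eIF4F, made of the cap-binding eIF4E, the helicase eIF4A and the scaffold eIF4G, loads that subunit on the capped end of the mRNA. eIF5 and eIF5B then complete the joining of the large subunit. In cells that grow on a cytokine this machinery sets how fast protein is made.

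The arrays gave linear intensities, which the authors had normalized together with dChip. The median intensity per array lay between 48.8 and 70.6, and the arrays of a group correlated between experiments at 0.975 to 0.984 across the tested probe sets, which are not independent of each other. Of 10 myeloblast markers, 7 reached the minimum for testing (Mpo, Prtn3, Ctsg, Myb, Csf2rb, Spi1 and Cebpa), while Kit, Cd34 and Elane averaged 7.97, 5.83 and 19.6, so that the label of myeloblast was borne out by part of its markers only. Of the markers of other cells, 0 of 5 lymphoid, 3 of 5 macrophage, 2 of 4 erythroid and megakaryocyte, and 3 of 4 mast cell and basophil genes reached the minimum. The summed intensity of the macrophage markers was 3282 and 3454 at 4 h with high IL-3, 3242 and 3757 at 4 h with low IL-3, and 3289 and 3518 at 0 h. That of the mast cell and basophil markers was 1239 and 2280 at 4 h with high IL-3, 1233 and 2591 at 4 h with low IL-3, and 1102 and 1767 at 0 h, and their part in the results was not tested. In bulk RNA, fewer cells of a type and less RNA per cell cannot be told apart.

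The first comparison asked whether the dose of IL-3 altered how much of these transcripts remained. The transcript of 1 gene, Eif4a1, differed: it was higher with high IL-3 than with low IL-3, and 41 of the 42 genes did not pass. Eif4a1 encodes the main eIF4A helicase, which unwinds the leader of the mRNA. Over all 6792 genes tested, limma called 0.869% higher and 0.0147% lower with high IL-3 (Benjamini-Hochberg adjusted p under 0.05), and of the 42 initiation factor genes it called 1 higher and 0 lower. At an unadjusted p under 0.05 limma gave 3 of the 42 higher and 2 lower, and 744 of all 11856 tested probe sets higher and 259 lower. The median log2 difference of the 42 genes was 0.01, against -0.01 over all genes tested. Differences are on the scale of log2(intensity + 16). The fit took out the overall difference between the 2 divided cultures. Every p-value thus reflects how far the differences between groups varied between those cultures, for the gene and for probe sets of similar signal. limma drew the spread of each gene toward theirs by a variance trend.

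Eif4a1 had intensities of 4974 and 4871 at 2 h with high IL-3 in experiments 1 and 2, against 4507 and 4178 at 2 h with low IL-3. At 4 h the intensities were 4352 and 4239 with high IL-3, against 3168.5 and 3166 with low IL-3. The 0 h arrays had 5439 and 5489.9. The arrays of high IL-3 were thus above those of low IL-3 in each of the 4 pairs, and the groups did not overlap at either time. As a share of 0 h in the same experiment, 80.0 and 77.2% remained at 4 h with high IL-3, against 58.3 and 57.7% with low IL-3. The half-life, from the slope of the logarithm of these shares through 0 h, was 11.9 ± 1.46 h with high IL-3 and 5.25 ± 0.30 h with low IL-3 (SD, n = 2 experiments). All half-lives given here come from arrays not scaled to a common total, and they depend on that choice. With scaling to a common 75th percentile, the log2 change of Eif4a1 from 0 h to 4 h with high IL-3 was 0.084, which is not a loss. Averaged over 2 h and 4 h, the log2 difference was 0.31 (SE 0.04, 95% interval 0.23 to 0.39, limma adjusted p = 0.00088). It stood at 0.14 and 0.22 at 2 h and at 0.46 and 0.42 at 4 h in the pairs of arrays. The call was lost when the experiment was left out as a block (adjusted p = 0.47), without a variance trend (0.16), with the mean over the gene's probe sets (0.18) and with scaling to a common 75th percentile (0.066). The other 2 tested probe sets of Eif4a1 had differences of 0.22 and 0.33 that did not pass (limma adjusted p = 0.63 and 0.60). Both were higher with high IL-3 in 2 of the 4 pairs only, and their means rest on the 2 h pair of experiment 1, at 0.83 and 1.29, while their other pairs lay between -0.08 and 0.16.

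**Figure D1:**
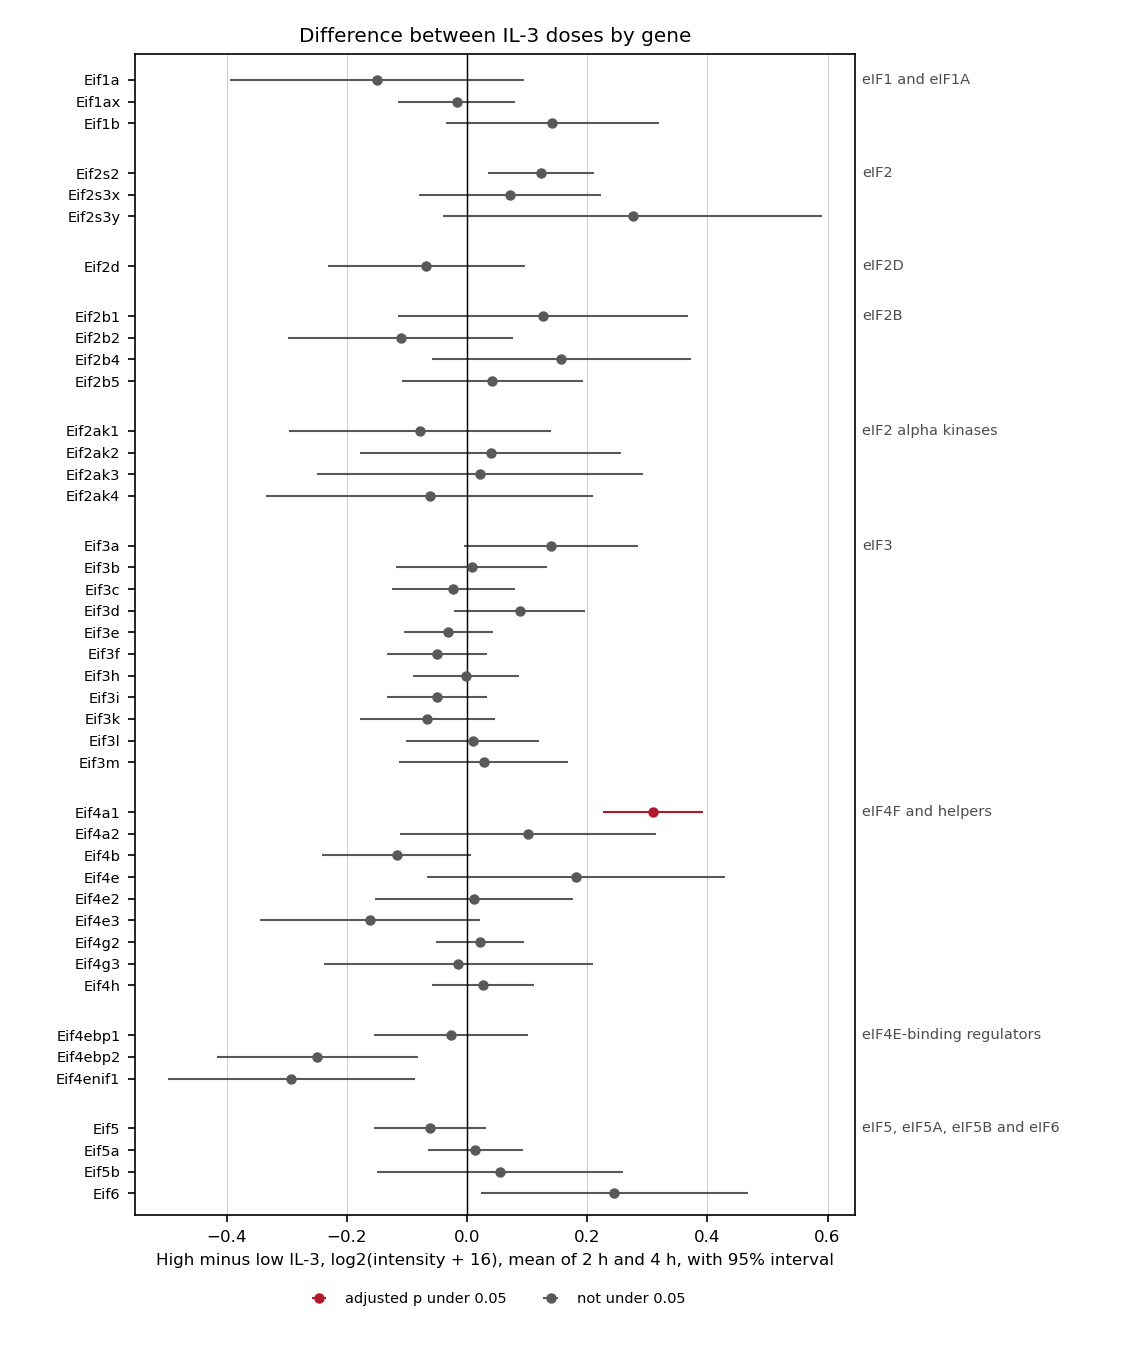
Log2 difference of high minus low IL-3, as the mean of 2 h and 4 h, for each of the 42 initiation factor genes, by complex. Points are limma estimates from 10 arrays and bars are 95% intervals. Eif4a1, at 0.31, is the single gene with an adjusted p under 0.05.

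Eif4a2, the paralogue that encodes the second eIF4A helicase, gave 0.10 (95% interval -0.11 to 0.31, limma adjusted p = 0.87). At 2 h, 87.5 and 51.6% of its 0 h intensity remained with high IL-3, against 63.7 and 50.9% with low IL-3. At 4 h, 61.7 and 56.8% remained with high IL-3, against 64.7 and 56.9% with low IL-3. The doses thus overlapped for Eif4a2 at both times, and the difference in response between Eif4a1 and Eif4a2 was not tested.

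The genes next to Eif4a1 by p-value did not pass. Eif2s2, the beta subunit of eIF2, differed by 0.12 (SE 0.04, limma adjusted p = 0.29), and Eif6, which keeps the large ribosomal subunit from joining too early, by 0.24 (SE 0.10, adjusted p = 0.51). In the other direction, Eif4enif1, a transporter of eIF4E that also represses the mRNAs eIF4E is bound to, had a log2 difference of -0.29 (SE 0.10, adjusted p = 0.27). Eif4ebp2, a repressor that binds eIF4E, had -0.25 (SE 0.08, adjusted p = 0.24). For 41 of the 42 genes the 95% interval lay within a 1.5-fold difference either way, Eif4a1 among them. The exception was Eif2s3y (-0.04 to 0.59), a gene measured in 1 of the experiments only. The 2 genes higher with high IL-3 in 4 of 4 pairs of arrays were Eif4a1 and Eif1b, and the 5 with 0 of 4 were Eif2ak1, Eif3k, Eif4b, Eif4e3 and Eif4enif1. Over all 6792 genes, 11.1% were higher with high IL-3 in 4 of 4 pairs and 7.44% in 0 of 4.

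The dose difference was also compared between 4 h and 2 h. limma called 0 of 6792 genes in either direction (0%), and 0 of the 42. At an unadjusted p under 0.05, 3 of the 42 were higher and 0 lower, and of all 11856 tested probe sets 358 were higher and 326 lower. Eif4a1 had the smallest of these p-values, with a dose difference that was 0.26 larger at 4 h (adjusted p = 0.86). The signed area between the decay curves, the study's own measure, was computed from shares of 0 h with high IL-3 shares above 1 set to 1. It was above 0 for 14 of the 42 genes, against 32.9% of all 6792 genes, and in both experiments for 8, against 21.6% of all genes. Eif4a1 had the highest value, 0.39 and 0.45 in experiments 1 and 2, followed by Eif4a2 (0.45 and 0.01) and Eif1b (0.28 and 0.17). The limit lowers the area of transcripts that read above 0 h, and without it 25 genes were above 0. The study's methods ascribe readings above 0 h to measurement noise, since transcription was blocked.

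The second question was how fast each transcript decayed. The initiation factor genes spread widely at 4 h, between 13.9% of the 0 h intensity for Eif1a and 174% for Eif2ak2 among the genes measured in both experiments. Shares above the 0 h level are given as measured, and the study treats them as measurement noise. The arrays were not scaled to a common total, and the median gene fell by 0.16 at 4 h with high IL-3 and by 0.21 with low IL-3. Scaling to a common 75th percentile moved that median by 0.41 with high IL-3 and 0.42 with low IL-3. Changes between 4 h and 0 h are therefore given relative to the median gene, from a fit in which each array was shifted by its median log2 difference from the 0 h array of its experiment. On this scale 11 of the 42 genes were higher and 16 lower at 4 h with high IL-3, or 26.2% and 38.1%, where limma called 26.6% of all genes higher and 33.7% lower. With low IL-3, 12 were higher and 16 lower, or 28.6% and 38.1%, where 32% of all genes were called higher and 35.4% lower. The shares of the initiation factor genes were thus near those of all genes. Without the shift, 4 were higher and 20 lower with high IL-3 (9.11% and 40.6% of all genes), and 7 were higher and 19 lower with low IL-3 (13.7% and 43.6% of all genes). The median of the 42 genes relative to the median gene was -0.04 with high IL-3 and 0.04 with low IL-3, against 0.01 and 0.00 over all genes. Both comparisons use the same 0 h arrays.

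**Figure D2:**
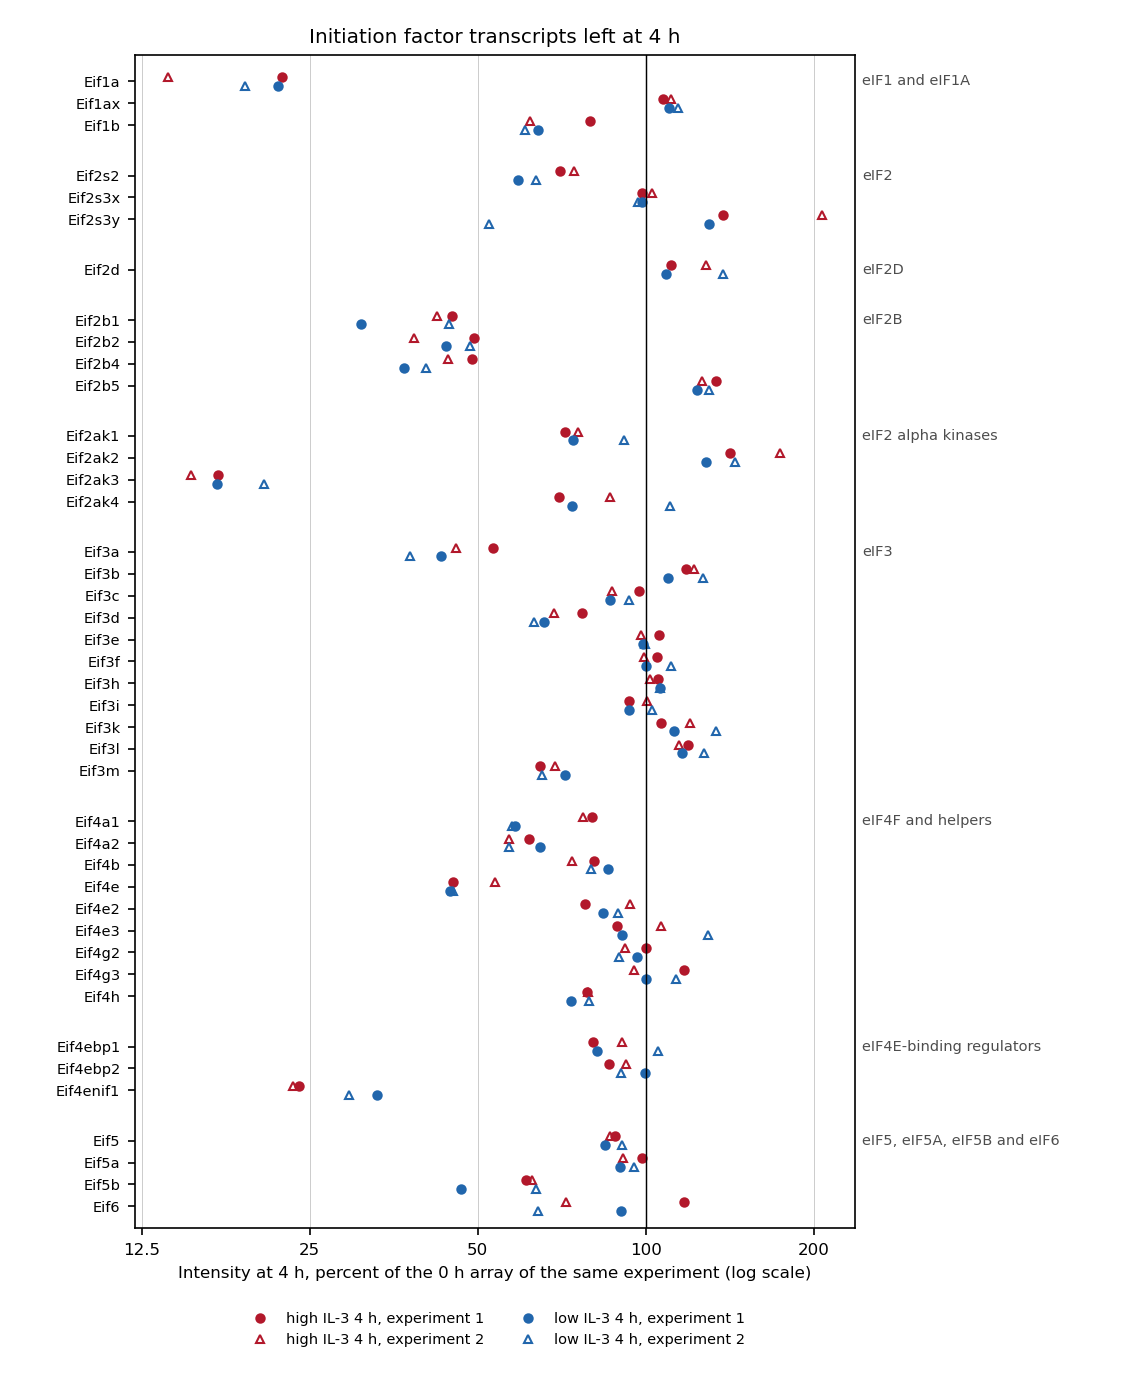
Intensity at 4 h as a percentage of 0 h in the same experiment (log axis), for the 42 genes by complex. Red marks are high IL-3 and blue marks low IL-3, filled circles experiment 1 and open triangles experiment 2. Eif1a, Eif2ak3 and Eif4enif1 lie at 32.9% or less in all 4 arrays, while Eif2b5 and Eif2ak2 lie to the right of the 0 h line in all 4 arrays. The points of Eif2s3y in experiment 2 come from intensities of 13.7 or less.

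The genes of the start codon selection factors went apart. For Eif1a, which encodes eIF1A, 56.7 and 36.7% of the 0 h intensity remained at 2 h with high IL-3 and 22.3 and 13.9% at 4 h, against 61.2 and 39.3% at 2 h and 21.9 and 19.1% at 4 h with low IL-3. Its half-life was 1.67 ± 0.38 h with high IL-3 and 1.80 ± 0.23 h with low IL-3 (SD, n = 2). Relative to the median gene, Eif1a fell by 2.24 with high IL-3 (SE 0.16, limma adjusted p = 2.4e-06) and by 2.00 with low IL-3 (SE 0.16, adjusted p = 4.5e-06). Eif1ax, the X-linked gene for the same factor, stood at 107 and 111% at 4 h with high IL-3 and at 110 and 114% with low IL-3. All of its arrays at 2 h and 4 h were above its 0 h arrays in the same experiment, and those of Eif1a were all below. Eif1b, which encodes a homologue of eIF1, lay between them: 79.4 and 61.9% remained at 4 h with high IL-3, against 63.97 and 60.6% with low IL-3, and it was lower than the median gene at both doses (-0.33 with high IL-3, adjusted p = 0.022, and -0.45 with low IL-3, adjusted p = 0.0036).

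Of the eIF2 subunits, Eif2s2 fell in the probe set with the highest mean. Among its other tested probe sets, 1 gave the same call at each dose, 2 were not called and 1 was called higher. The gamma subunit genes, which bind GTP and the initiator tRNA, gave no call relative to the median gene with low IL-3. Eif2s2 stood at 70.3 and 74.3% of 0 h at 4 h with high IL-3, against 58.9 and 63.6% with low IL-3, and was lower than the median gene by 0.30 and 0.49 with high and low IL-3 on the log2 scale (limma adjusted p = 0.001 and 2.9e-05). Eif2s3x, the X-linked gamma gene, stood at 98.3 and 102% with high IL-3, against 98.3 and 97.0% with low IL-3, so that the doses overlapped near the 0 h level. Its Y-linked partner Eif2s3y was read in 1 experiment only, at 258 to 474 on the 5 arrays of experiment 1 and at 3.46 to 13.7 on the 5 arrays of experiment 2. Its change with high IL-3 (0.59, SE 0.22, adjusted p = 0.043) rests in part on shares of a 0 h intensity of 6.62 in experiment 2. Eif2d, an alternative carrier of initiator tRNA, was higher than the median gene at both doses, by 0.42 with high IL-3 (adjusted p = 0.0013) and by 0.50 with low IL-3 (adjusted p = 0.00033), with 111 and 128% of 0 h at 4 h with high IL-3 and 109 and 138% with low IL-3.

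eIF2B, the exchange factor that recharges eIF2, split sharply. Eif2b5, which encodes the catalytic epsilon subunit, stood at 133 and 126% of 0 h at 4 h with high IL-3, against 124 and 130% with low IL-3, and was higher than the median gene by 0.54 and 0.55 with high and low IL-3 (SE 0.08 each, limma adjusted p = 0.00038 and 0.00025). The alpha subunit gene Eif2b1 stood at 44.9 and 42.2% with high IL-3, against 31.0 and 44.5% with low IL-3. The beta subunit gene Eif2b2 had 49.2 and 38.4% left with high IL-3, against 43.9 and 48.3% with low IL-3. The delta subunit gene Eif2b4 had 48.8 and 44.3% left with high IL-3, against 36.8 and 40.5% with low IL-3. The 3 regulatory subunit genes were all under 50% in every array at 4 h and Eif2b5 was above its 0 h level in every array. Their changes relative to the median gene lay between -1.01 and -0.88 with high IL-3 and between -1.16 and -0.88 with low IL-3, with half-lives between 3.33 and 4.25 h with high IL-3 and between 2.90 and 3.79 h with low IL-3 (means of 2 experiments). Most of the loss of Eif2b4 came after 2 h: 93.1 and 86.0% remained at 2 h with high IL-3, against 96.7 and 75.8% with low IL-3.

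The kinases that phosphorylate eIF2 did not move together. Eif2ak3 encodes PERK, the kinase of endoplasmic reticulum stress, and decayed with a half-life of 1.59 ± 0.01 h with high IL-3 and 1.65 ± 0.12 h with low IL-3 (SD, n = 2). At 4 h its intensity was 43.1 and 20.6 with high IL-3 and 43.0 and 27.8 with low IL-3, where the 0 h arrays had 252 and 134, so that all 4 arrays at 4 h were under 50. Eif2ak2 encodes PKR, which is activated by double-stranded RNA, and stood at 141 and 174% of 0 h at 4 h with high IL-3, against 128 and 144% with low IL-3 (0.77 and 0.63 relative to the median gene with high and low IL-3, limma adjusted p = 0.00032 and 0.00094). The other tested probe set of Eif2ak2 stood at 98.0 and 134% with high IL-3, against 101 and 117% with low IL-3, and did not pass (0.35 and 0.33 relative to the median gene with high and low IL-3, adjusted p = 0.096 and 0.11). Eif2ak1, the heme-regulated kinase, gave -0.24 with high IL-3 and -0.05 with low IL-3, and Eif2ak4, the amino acid sensor GCN2, gave -0.15 and 0.08, none of which passed. The arrays of Eif2ak3 at 4 h were all at or under 20.7% of 0 h, and those of Eif2ak2 all at or above 128% in the probe set with the highest mean.

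eIF3, the largest initiation factor, had 11 genes measured. Relative to the median gene, 6 were higher and 3 lower with high IL-3, where 26.6% of all genes were called higher and 33.7% lower. With low IL-3, 7 were higher and 3 lower, where 32% of all genes were called higher and 35.4% lower. The median of the 11 was 0.20 at each dose, against 0.01 and 0.00 over all genes with high and low IL-3. Eif3k and Eif3l, subunits at the edge of the complex, were at 106 and 120% and at 119 and 115% of 0 h at 4 h with high IL-3, against 112 and 133% and 116 and 127% with low IL-3. Eif3b, a core subunit, was at 118 and 122% with high IL-3 and at 110 and 127% with low IL-3. No array of these 3 genes at 4 h was below its 0 h array. Eif3e, Eif3f, Eif3h and Eif3i stood between 93.3 and 106% with high IL-3, against 93.1 to 111% with low IL-3. They were called higher than the median gene with low IL-3 (0.18 to 0.30), a direction that turned under quantile normalization for Eif3e and Eif3i. Eif3c, another core subunit, gave 0.05 and 0.06 with high and low IL-3, which did not pass and also turned sign under that normalization.

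Eif3a, the gene of the largest subunit and scaffold of eIF3, behaved unlike them. It stood at 78.6 and 55.1% of 0 h at 2 h and at 53.3 and 45.7% at 4 h with high IL-3, against 70.8 and 62.0% at 2 h and 43.0 and 37.8% at 4 h with low IL-3. Its half-life was 3.91 ± 1.00 h with high IL-3 and 3.14 ± 0.39 h with low IL-3 (SD, n = 2), and it was lower than the median gene by 0.84 with high IL-3 (SE 0.11, limma adjusted p = 0.00012) and by 1.08 with low IL-3 (SE 0.11, adjusted p = 1.8e-05). As a share of 0 h, every array of Eif3a at 2 h and 4 h was below every array of the other eIF3 genes at the same time. Eif3d, a subunit that can bind the cap of some mRNAs, and Eif3m were also lower than the median gene: 76.9 and 68.4% of Eif3d and 64.7 and 68.8% of Eif3m remained at 4 h with high IL-3, against 65.7 and 63.2% of Eif3d and 71.6 and 65.3% of Eif3m with low IL-3. Eif3m had lost little at 2 h, with 103 and 98.9% left with high IL-3, against 92.8 and 96.3% with low IL-3.

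**Figure D3:**
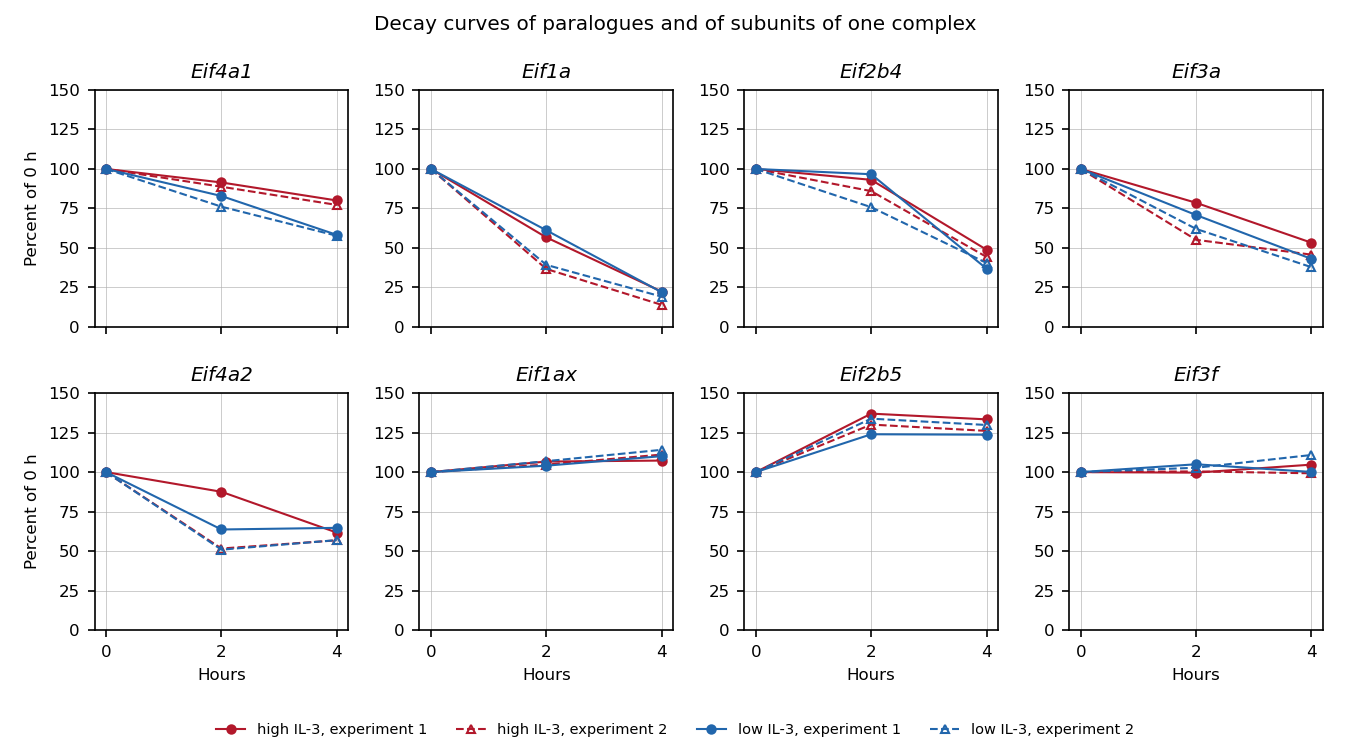
Intensity as a percentage of 0 h at 0, 2 and 4 h for 4 pairs of genes, each pair in 1 column: Eif4a1 and Eif4a2, Eif1a and Eif1ax, Eif2b4 and Eif2b5, Eif3a and Eif3f. Red lines are high IL-3 and blue lines low IL-3, solid with circles for experiment 1 and dashed with triangles for experiment 2. The doses separate for Eif4a1, and the upper and lower gene of the other 3 pairs separate at 4 h whatever the dose.

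Among the eIF4F genes and their helpers, 0 of 9 were higher and 4 lower than the median gene with high IL-3. With low IL-3, 1 was higher and 4 lower. Over all genes, 26.6% were called higher and 33.7% lower with high IL-3, and 32% and 35.4% with low IL-3. The 4 lower at either dose were Eif4a1, Eif4a2, Eif4e and Eif4h. Eif4e, the cap-binding subunit, kept 45.1 and 53.7% of its 0 h intensity at 4 h with high IL-3, against 44.7 and 45.2% with low IL-3, with a half-life of 4.70 ± 0.43 h with high IL-3 and 3.80 ± 0.03 h with low IL-3 (SD, n = 2). At 2 h it had stood at 123 and 71.8% with high IL-3, against 81.5 and 78.2% with low IL-3, so that the experiments disagreed at that time with high IL-3. Eif4a1 was lower than the median gene by 0.17 with high IL-3 (limma adjusted p = 0.032) and by 0.57 with low IL-3 (adjusted p = 2.6e-05), and Eif4a2 by 0.57 with high IL-3 (adjusted p = 0.0085) and by 0.49 with low IL-3 (adjusted p = 0.015). Eif4h, which stimulates the helicase, had 78.4 and 78.7% left with high IL-3, against 73.4 and 78.9% with low IL-3.

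The scaffold genes measured, Eif4g2 and Eif4g3, held in the probe sets used, and Eif4g1 was not among the genes measured. Eif4g2, which encodes a relative of eIF4G that lacks the site for eIF4E, stood at 100 and 91.8% at 4 h with high IL-3, against 96.4 and 89.6% with low IL-3, and Eif4g3 at 117 and 95.3%, against 100 and 113% with low IL-3. Neither passed relative to the median gene in the probe set used. The other tested probe sets of Eif4g2 were called higher at both doses (0.21 and 0.42 with high IL-3, 0.18 and 0.72 with low IL-3). Eif4b, the other partner of the helicase, and the eIF4E relative Eif4e2 did not pass either (-0.20 and -0.05 with high IL-3, -0.06 and 0.01 with low IL-3). The third eIF4E relative, Eif4e3, was called higher with low IL-3 (0.33, limma adjusted p = 0.0094), and its value with high IL-3 was 0.13 (adjusted p = 0.23).

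Of the regulators that bind eIF4E, the repressor genes Eif4ebp1 and Eif4ebp2 did not pass relative to the median gene at either dose, while Eif4enif1 was among the shortest-lived of the 42. Eif4enif1 stood at 51.6 and 38.7% of 0 h at 2 h and at 23.9 and 23.3% at 4 h with high IL-3, against 57.3 and 47.2% at 2 h and 32.9 and 29.3% at 4 h with low IL-3. Its half-life was 1.88 ± 0.12 h with high IL-3 and 2.33 ± 0.23 h with low IL-3 (SD, n = 2), so that with Eif1a and Eif2ak3 it made up the 3 genes under 3 h at both doses. Relative to the median gene it fell by 1.84 with high IL-3 (SE 0.12, limma adjusted p = 1.3e-06) and by 1.42 with low IL-3 (SE 0.12, adjusted p = 6e-06). In each pair of arrays the high IL-3 array was the lower one, the reverse of Eif4a1. Eif4ebp1 stood at 80.3 and 90.5% at 4 h with high IL-3, against 81.9 and 105% with low IL-3.

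Of the late-acting factors, Eif5b, the GTPase of subunit joining, was lower than the median gene by 0.50 with high IL-3 (limma adjusted p = 0.0026) and by 0.63 with low IL-3 (adjusted p = 0.00049), with 61.1 and 62.6% left at 4 h with high IL-3 and 46.6 and 63.6% with low IL-3. Eif5, which makes eIF2 hydrolyse its GTP, and Eif5a, which helps the ribosome through difficult peptide bonds, did not pass. They stood at 86.1 to 98.5% with high IL-3, against 84.6 to 95.4% with low IL-3. Eif6 did not pass and varied between the experiments, with 117 and 72.1% left with high IL-3, against 90.3 and 63.98% with low IL-3.

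Probe sets of a gene read different stretches of its transcripts, and they did not always give the same change. Of the 25 genes with several tested probe sets, the change at 4 h with low IL-3 ranged by more than 0.5 within 7 and by more than 1 within 3, and the median range was 0.16. For Eif2s2 the 5 probe sets lay between -0.66 and 0.76 relative to the median gene, and for Eif4b the 3 lay between -0.23 and 0.41. These were the 2 genes with probe sets called in opposite directions. For Eif4e the range was -1.30 to 0.28, and for Eif4ebp2 it was 0.14 to 1.18. The probe sets of Eif1a (both at or below -1.85), Eif2b2 (-0.88 to -0.75), Eif2d (0.49 to 0.60), Eif3l (0.45 and 0.50) and Eif3a (-1.66 to -0.87) kept 1 direction each. Of the genes called relative to the median gene that had several tested probe sets, every other probe set gave the same call for 5 of 13 with high IL-3 and for 9 of 15 with low IL-3. The exceptions at both doses were Eif2ak2, Eif2s2, Eif3e, Eif4a1, Eif4e and Eif5b, and with high IL-3 also Eif3a and Eif4h. No other probe set of Eif4a1 (-0.23 and -0.18 with low IL-3) or Eif5b (-0.23 with low IL-3) passed. Genes without a call in the probe set used could have others called. These were called higher for Eif4g2 and Eif4ebp2 at both doses, Eif3c and Eif5a with low IL-3, and Eif3i and Eif4e3 with high IL-3. Eif4b also had other probe sets called at both doses, in opposite directions with low IL-3. Positions of the probe sets on the transcripts were not used here.

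**Figure D4:**
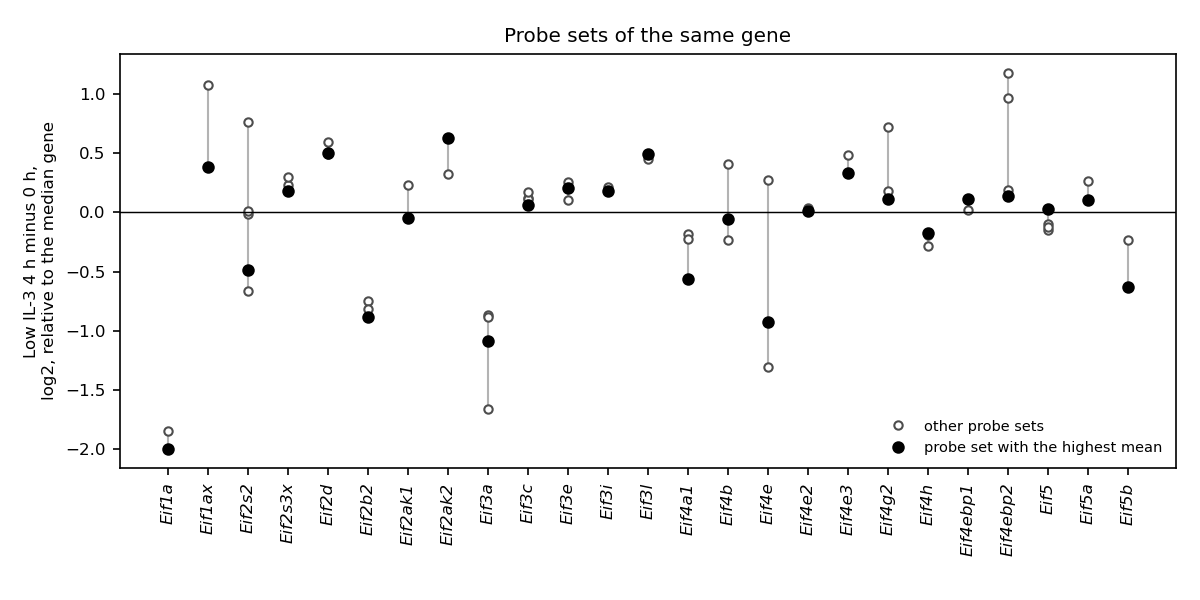
Log2 change at 4 h with low IL-3 against 0 h, relative to the median gene, for each tested probe set of the 25 genes that have several. Filled points are the probe sets with the highest mean, which stand for the gene in the text, and open points are the others. Eif2s2, Eif4e and Eif4ebp2 span more than 1.

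The transcripts of many translation genes begin with a run of pyrimidines, the 5′ terminal oligopyrimidine tract, through which growth signals govern their translation. The first bases around the start of each gene were therefore read from RefSeq (assembly GRCm38.p6) in a window of 30 bases, 15 before the annotated start and 15 from it. Such windows matched 34 of the 42 genes, and Eif1a, Eif3e, Eif3h, Eif3i, Eif4e3, Eif4ebp1, Eif4g2 and Eif6 had none. A run of at least 10 bases of C or T, a length chosen after the data were seen, was present in the windows of 7 genes (20.6% of 34), against 6.25% of 27025 genes. In 2 of the 7, Eif4e and Eif4enif1, the run ended before the annotated start and so lies outside the annotated transcript. A run that held bases from the start on was found in 5 genes (14.7%), against 3.99% of all genes. On the other strand, a run of at least 10 bases of A or G was found in 2 of the 34, against 6.78% of genes. The windows of the eIF2B subunits and of 3 eIF3 subunits are shown because these genes share a complex and differ in decay, that of Eif2s3x because its run also crossed the start, and that of Eif4enif1 because its run ended just before the start. Capitals mark the longest run of C and T.
Eif2b5: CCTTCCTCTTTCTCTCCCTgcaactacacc
Eif2b1: cgcactcgaTTTCCggcgccgacgagtgac
Eif2b2: tttcaccgagcggaagttgaCCTCTCTCgg
Eif2b4: cgggaCCCagtgcacgccggaagttgtagt
Eif3f: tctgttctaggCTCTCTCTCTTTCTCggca
Eif3l: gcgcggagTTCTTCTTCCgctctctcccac
Eif3a: cggggCTCgggcggcggcgctgccgccgcg
Eif2s3x: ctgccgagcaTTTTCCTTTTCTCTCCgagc
Eif4enif1: ccctgCCCTTCTTCCggaggagcctctagc
They lie at chr16:20498802-20498831 on the plus strand (Eif2b5), chr5:124579117-124579146 on the minus strand (Eif2b1), chr12:85219466-85219495 on the plus strand (Eif2b2), chr5:31193125-31193154 on the minus strand (Eif2b4), chr7:108934400-108934429 on the plus strand (Eif3f), chr15:79075208-79075237 on the plus strand (Eif3l), chr19:60790679-60790708 on the minus strand (Eif3a), chrX:94212637-94212666 on the minus strand (Eif2s3x) and chr11:3203004-3203033 on the plus strand (Eif4enif1, the start with the longest run of its 4).

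The longest run was 19 bases in Eif2b5, which was above its 0 h level in every array at 4 h, against 5, 8 and 3 bases in Eif2b1, Eif2b2 and Eif2b4, which were all under 50%. Most of the Eif2b5 run lay before the annotated start, at bases 1 to 19 of a window whose first 15 bases precede it. The Eif2b2 run, at bases 21 to 28, lay wholly after the start. In eIF3, runs of 15 and 10 bases were found in Eif3f and Eif3l, and a run of 3 in Eif3a. At 4 h Eif3f stayed near its 0 h level and Eif3l was above it. The Eif3l run, at bases 9 to 18 of its window, also lay mostly before the start. Eif1ax, Eif3b and Eif3k, with runs of 4, 5 and 2, were also above their 0 h level at 4 h. A run of at least 10 held bases from the start on in 5 genes, Eif2s3y among them. Their change with low IL-3 relative to the median gene lay between 0.18 and 0.55. Across the others it lay between -1.76 and 0.63. Of the 5, Eif2s3y was measured in experiment 1 only, and neither it nor its X-linked partner Eif2s3x passed with low IL-3. Setting apart the runs that end before the start was chosen after these values were seen, and the difference was not tested. These windows are a description of the annotated starts, which may not be the starts used in these cells.

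The genes that act around the initiation factors were set beside them. Of 9 tested genes of elongation and termination, 1 was higher and 0 lower with high than with low IL-3. Over all genes, limma called 0.869% higher and 0.0147% lower. The 1 gene of the list was Eef1e1, a scaffold protein of the aminoacyl-tRNA synthetase complex (0.77, SE 0.11, limma adjusted p = 0.0017). Of the 12 tested cap-binding, poly(A)-binding and helper genes, 0 passed in that comparison, and 0 at an unadjusted p under 0.05. Of 9 tested genes of the mTOR and MNK kinases, the eIF2 phosphatase and the stress branch, 0 passed. At an unadjusted p under 0.05, where 744 of 11856 tested probe sets were higher and 259 lower, 2 of the 9 were higher. These were Ppp1r15a, a subunit of the phosphatase that reverses the phosphorylation of eIF2 (0.56, adjusted p = 0.11), and Atf4, the transcription factor made when eIF2 is phosphorylated (0.34, adjusted p = 0.11).

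At 4 h the counts relative to the median gene can be read against the shares of all genes given above, 26.6% higher and 33.7% lower with high IL-3 and 32% higher and 35.4% lower with low IL-3, and differences between the lists were not tested. Of the stress branch and kinase genes, 0 were higher and 8 of 9 lower than the median gene at each dose, with a median of -0.86 with high IL-3 and -1.11 with low IL-3. Trib3, a pseudokinase induced through Atf4, was lowest (-2.88 with high IL-3, limma adjusted p = 1.4e-06, and -2.56 with low IL-3, adjusted p = 2.6e-06). Of the elongation and termination genes, 1 was higher and 2 lower with high IL-3, and 3 were higher and 3 lower with low IL-3, with medians of -0.02 and 0.02. Of the cap, poly(A) and helper genes, 4 were higher and 5 lower with high IL-3, and 7 were higher and 5 lower with low IL-3, with medians of 0.10 and 0.17. Denr, which releases and reloads ribosomal subunits, was lower at both doses (-0.86 with high IL-3 and -0.77 with low IL-3), while its partner Mcts1 was higher (0.26 with high IL-3 and 0.31 with low IL-3).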

How the data were processed

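The authors normalized all 10 Affymetrix mouse genome arrays together in dChip, at its default settings, and deposited linear intensities of 22690 probe sets. For dChip, no version is given in the sources used here. Because mRNA is lost after transcription stops, the study did not want arrays forced to equal totals, and no further scaling was applied in the main fit. Precision is limited by the number of arrays, 2 per group.

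Names of probe sets came from the platform annotation, and for 20364 of them the symbol was looked up by gene ID in a RefSeq table (GRCm38.p6). 20393 probe sets named 1 gene, 691 several and 1606 none. The 42 genes had 103 probe sets, of which 87 reached the minimum, and 5 probe sets naming an initiation factor with another gene were left out. The RefSeq table held all 42 genes, and 0 symbols changed. The probe sets used included 3 of the type _s_at and 6 of the type _x_at, which can also bind other transcripts.

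limma 3.58.1 in R 4.3.3 was fitted to log2(intensity + 16) of the 11856 probe sets with a mean of at least 50, over all 5 groups in 1 model blocked by experiment, with a variance trend in eBayes. Adjusted p is Benjamini-Hochberg over all tested probe sets, at a threshold of 0.05. Counts over all genes use 1 probe set per gene, 6792 in all. Experiments were blocked because each divided 1 culture over its 5 arrays, and the arrays of an experiment also deviated together (correlations of 0.762 to 0.887). The fit was tested on simulated data with 200 changed probe sets.

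The genes and lists were chosen with earlier results of these data known. All 42 may be named. Values in every array are given for genes that pass between the doses, for up to 4 genes per complex with the smallest p, and for paralogues. The lists were elongation and termination, cap, poly(A) and helper genes, kinases and stress branch, and markers of myeloblast, lymphoid, macrophage, erythroid and megakaryocyte, and mast cell and basophil. The alternatives were pseudocounts of 1 and 64, no filter or a mean of 200, scaling to the 75th percentile, quantile normalization, no block, no variance trend, the mean over probe sets, each array left out and, chosen after seeing the data, the shift to the median gene. Python 3.11.15, pandas 2.3.3, numpy 2.4.6, scipy 1.17.1 and matplotlib 3.10.9 were also used.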

Additional observations from a re-analysis of the deposited data

Results flagged for a closer look

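In 3 genes the difference between the doses ran in opposite directions at 2 h and 4 h in both experiments. The dose difference at 4 h minus that at 2 h was 0.31 for Eif2ak2 (limma adjusted p = 0.94), -0.27 for Eif4a2 (adjusted p = 0.94) and -0.19 for Eif4ebp1 (adjusted p = 0.93). Eif2ak2 was lower in high than with low IL-3 at 2 h and higher at 4 h, and the other 2 genes were higher with high IL-3 at 2 h and lower at 4 h. The second tested probe set of Eif2ak2 did not show this pattern (0.12 and -0.34 at 2 h and -0.04 and 0.18 at 4 h in experiments 1 and 2). None of these differences passed the test of the change between the times, in which limma called 0 of 6792 genes. How many of all genes showed such opposite directions is not given here, so the 3 genes cannot be set against a background.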

How the results depend on the processing

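Of 1018 comparisons of 51 called results on single genes with their alternatives, 882 kept their direction and call, 125 kept the direction and lost the call, and 11 turned. The 4 dose differences that had not passed (Eif2s2, Eif4ebp2, Eif4enif1 and Eif6) kept their direction and stayed without a call in all 80. With scaling to the 75th percentile the change turned to 0.17 (Eif4b), 0.052 (Eif4h), 0.25 (Eif5) and 0.046 (Eif6) with low IL-3, and to 0.084 (Eif4a1), 0.057 (Eif4b), 0.083 (Eif4h), 0.20 (Eif4ebp1) and 0.23 (Eif5) with high IL-3. Eif2ak1 with high IL-3 turned to 0.044 with quantile normalization, and Eif5 with low IL-3 to 0.026 with the shift to the median gene. Relative to the median gene, quantile normalization turned the sign of 4 genes with high IL-3 and 8 with low IL-3, all within 0.20 of 0.

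Between the doses, the count of 1 higher gene became 0 with 75th percentile scaling, without a variance trend, with the mean over probe sets and without the replicate block. It was 1 to 2 with single arrays left out, the second being Eif4e without the second high IL-3 array at 2 h. At 4 h with high IL-3, the 4 higher genes became 20 with 75th percentile scaling, 12 with quantile normalization and 11 with the shift. Over all 11856 tested probe sets, the 1147 higher became 5922, 4696 and 3368 with those scalings. The 4 genes became 2 without a trend and 0 without the replicate block, where the 1147 probe sets became 1091 and 38. They were 1 to 5 genes with single arrays left out, 2 without the 0 h array of experiment 2 and 1 without either high IL-3 array at 4 h. The 20 lower genes became 9 with 75th percentile scaling and 11 without the block, where the 4201 lower probe sets became 2617 and 1804. They were 16 to 20 genes with single arrays left out. At 4 h with low IL-3, the 7 higher genes became 21, 11 and 12 with those 3 scalings. Over all tested probe sets, the 1819 higher became 5836, 4807 and 4216. The 7 genes became 4 without a trend and 0 without the replicate block, where the 1819 probe sets became 1672 and 148. They were 0 to 7 genes with single arrays left out, 2 without the 0 h array and 0 without the low IL-3 array at 4 h of experiment 2. The 19 lower genes became 11 with 75th percentile scaling, where the 4535 lower probe sets became 2854. They were 17 to 21 genes with single arrays left out. The 14 genes with an area above 0 became 25 without the limit on shares above 1. For transcripts that reached intensities of 50 or less, such as Eif2ak3, the scale of log2(intensity + 16) understates the loss. The cause of these changes was not tested.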

Other observations

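The 2 experiments differed in transcripts of the Y chromosome. Eif2s3y read 258 to 474 in experiment 1 and 3.46 to 13.7 in experiment 2. Kdm5d, a Y-linked histone demethylase chosen after these values were seen, read 110 to 127 in experiment 1 and 2.99 to 7.94 in experiment 2 in its brightest probe set. Of the 2 probe sets of Uty, another Y-linked gene, the dimmer read 30.2 to 142 in experiment 1 and 1.10 to 4.07 in experiment 2, and the brighter read 26.6 to 70.3 in experiment 1 and 34.9 to 58.5 in experiment 2. Eif2s3x, the X-linked partner of Eif2s3y, was measured in both experiments, at 2301 and 3646 at 0 h. Each group holds 1 array of each experiment, so that this difference does not run between the groups, and its cause was not tested.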
